A study of Mus musculus with 3 samples.

Results

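The S100 calcium-binding proteins are described here in the back-skin epidermis of mice through 10 genes, S100a1, S100a3, S100a4, S100a6, S100a8, S100a10, S100a11, S100a13, S100a14 and S100a16. They are 10 of the 49386 gene symbols in the deposited tables. They were selected on their levels across the 3 libraries, which were already known, so every level and difference below is a description. The mice were wild-type C57BL/6 animals of 7 weeks in the second telogen, the resting phase of the hair cycle. After thermolysin (0.25 mg/ml for 1 h) had freed the epidermis, its cells were stained for CD34 and for the integrin chain Itga6 and sorted into 3 populations. S cells, the suprabasal bulge stem cells, were CD34-positive with low Itga6. B cells, the basal bulge stem cells, were CD34-positive with high Itga6. N cells, the non-stem cells, were CD34-negative. RNA of 4 mice was pooled per population and amplified, which gave 1 library for each, so no value below has a replicate error and no test was possible.

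S100 proteins are small proteins of vertebrates that mostly work as dimers. Each subunit has an EF-hand calcium-binding loop of the common kind near its end and a variant one before it. Calcium opens a greasy surface by which the dimer holds its targets, among them annexins, the tumour suppressor p53 and non-muscle myosin. Some S100 proteins also leave the cell and act on receptors such as Ager (RAGE) and Tlr4. In skin, most S100 genes lie beside the genes of the cornified barrier in the epidermal differentiation complex.

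All 10 genes lie on mouse chromosome 3 (mm10). Of these, 8 lie in a cluster that runs with S100a9 from chr3:90511034-90695721, and S100a11 and S100a10 lie 2.82 Mb beyond it, at chr3:93520488-93564643. The loop of the common kind is the part that the genes share, and its coding bases are shown to compare them. The sequences are from GENCODE M21 transcripts (GRCm38), each is 36 bases long, and the capitals mark codons 1, 3, 5 and 12 of the loop, whose side chains hold the calcium ion.
S100a4: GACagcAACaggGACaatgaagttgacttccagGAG
S100a6: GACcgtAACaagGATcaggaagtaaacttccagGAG
S100a3: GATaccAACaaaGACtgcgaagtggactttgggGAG
S100a1: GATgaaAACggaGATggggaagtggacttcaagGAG
S100a8: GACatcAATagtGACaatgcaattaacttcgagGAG
S100a11: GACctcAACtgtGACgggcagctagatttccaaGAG
S100a13: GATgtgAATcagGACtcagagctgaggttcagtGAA
S100a16: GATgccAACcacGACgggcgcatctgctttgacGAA
S100a10: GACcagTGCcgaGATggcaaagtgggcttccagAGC
S100a14: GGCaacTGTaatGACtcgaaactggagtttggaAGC

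In 8 of the 10 genes, all 4 capital codons encode an acid or amide side chain of the usual kind. In S100a10, 2 of the 4 did, and in S100a14, 1 of the 4. S100A10 is known as the member that takes its active shape without calcium. The S100a4 loop lies at chr3:90605785-90605820 and the S100a6 loop at chr3:90614233-90614268, both on the plus strand in exon 3 of 3. The loop of S100a6 shared 28 of 36 bases with that of S100a4, and the S100a14 loop shared 15. Over the whole coding sequence, S100a4 and S100a6 were the most alike of all pairs of members, with 60.8% of aligned positions identical. S100a3 and S100a4 followed with 58.7%. S100a3 has 9 cysteine codons among its 101, and the other 9 genes have 1 to 4.

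The libraries held 31.25 M fragments for S, 32.65 M for B and 35.45 M for N (M for mega), as read from the steps between low values. Levels are FPKM (fragments per kilobase of transcript per M fragments), scaled between libraries by the median ratio of genes, and compare genes per length. The sort on CD34 showed in its transcript, with Cd34 at 215 in S, 144 in B and 0.201 in N. Itga6 was at 33.1 in S and 49.3 in B, in the order of the sort but less than 2-fold apart. It was highest in N, at 115. All 8 keratinocyte markers looked at were at 1 or more in each library, among them the keratin gene Krt14 at 12.7 in S, 277 in B and 588 in N. A gene was measured at a mean level of at least 1, which 11598 genes reached, 9 of the 10 S100 genes among them. S100a3 passed only through S and B. A gene below 1 in N can pass only through S or B, which favours a call as higher than N. Ratios are of (scaled FPKM + 1), and a gene is called where the log2 ratio is at least 1 in size, a 2-fold difference on that scale. In bulk RNA, fewer cells that express a gene and less RNA per cell cannot be told apart.

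In S cells against N cells, S100a6, S100a4, S100a3 and S100a1 were higher and S100a13 was lower. Thus 4 of the 10 genes were called higher, against 9.58% of all measured genes. With 1 of 10 called lower, the share of all measured genes was 10.9%. With a pseudocount of 5 in place of 1, 2 of the 10 were higher and 0 lower, since S100a1, S100a3 and S100a13 were then within the limit. The calls among all 11598 measured genes also fell, from 1111 to 449 higher and from 1267 to 558 lower. The median log2 ratio of the 9 measured genes was 0.47, and that of all measured genes 0.02. Nothing is read from these shares, since the genes were chosen with the levels known.

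In B cells against N cells, the same 4 genes were higher, S100a4 by far the most, and 0 of 10 were lower. Of all measured genes, 7.27% were called higher and 7.11% lower. The median log2 ratio of the 9 genes was 0.84, against -0.04 for all measured genes. Both comparisons share the N library, so they are not independent of each other.

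In S cells against B cells, S100a4 was lower and 0 of 10 genes were called higher, with S100a6 just inside the 2-fold limit at a log2 ratio of 0.98. Of all measured genes, 3.90% were called higher in S and 5.93% lower. The other 7 measured genes had log2 ratios between -0.55 and 0.20.

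**Figure D1:**
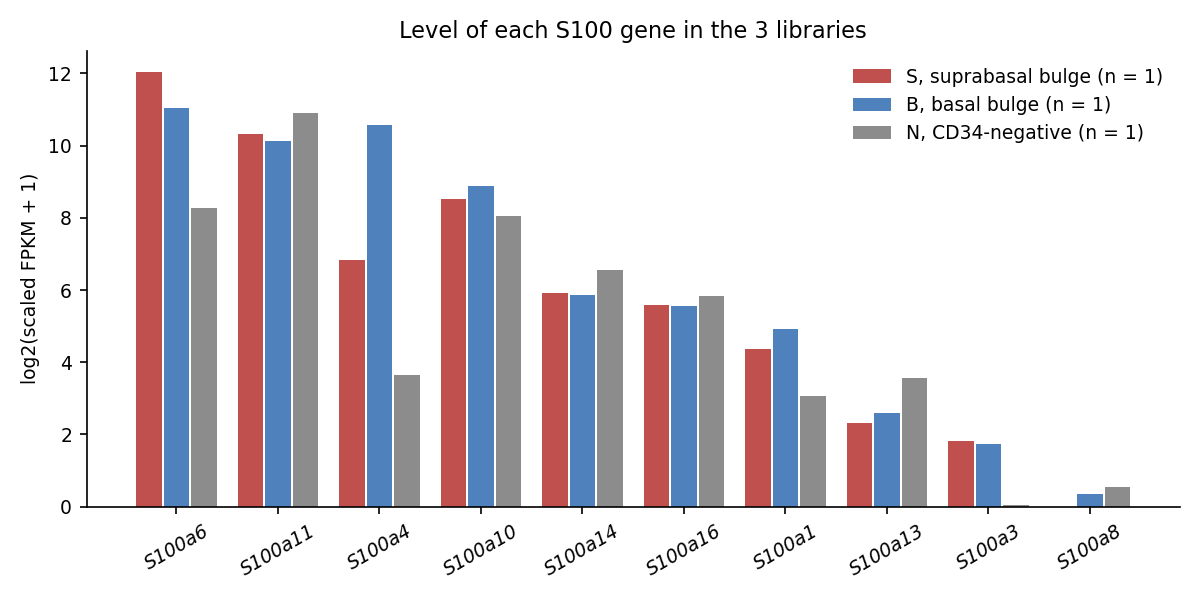
Level of each of the 10 S100 genes, as log2(scaled FPKM + 1), in the S, B and N libraries (1 library each, no error bars possible), ordered by mean level. S100a6 had its highest level in S, and S100a4 had its highest level in B. The highest S100 gene was S100a6 in S and in B, and S100a11 in N at 1918 scaled FPKM.

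S100a4 (ENSMUSG00000001020, chr3:90603771-90606045, plus strand) encodes a protein known as metastasin or Fsp1, which binds non-muscle myosin. Its level was 112 in S, 1521 in B and 11.5 in N. B was thus far above both other libraries, with S between B and N. The gene was 132-fold higher in B than in N (log2 ratio 6.93) and 9.75-fold higher in S than in N (log2 ratio 3.18). Between the bulge layers it was 13.6-fold lower in S than in B (log2 ratio -3.75). In log2 ratio of B over N, S100a4 had rank 6 of the 11598 measured genes. By level, it had rank 294 in S, rank 22 in B and rank 2994 in N. The 3 levels rest on about 1610, 24268 and 224 fragments in S, B and N, if the longest coding transcript is taken. Another annotated gene on the same strand, Gm42674 (chr3:90601904-90605885), covers the end of S100a3 and the start and most of S100a4. It was listed at or near 0 in all 3 libraries.

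S100a6 (ENSMUSG00000001025, chr3:90612882-90624181, plus strand) encodes calcyclin, which binds the ubiquitin ligase partner Cacybp. It begins 6.84 kb beyond the end of S100a4. Its level was 4170 in S, 2119 in B and 311 in N, so that both bulge libraries were above N and S was the highest. The gene was 13.4-fold higher in S than in N (log2 ratio 3.74) and 6.82-fold higher in B than in N (log2 ratio 2.77). Between the bulge layers it was 1.97-fold higher in S than in B, just short of the limit on the scale used for calls. S100a6 had rank 17 by level in S and also in B, and rank 157 in N. Its partner gene Cacybp, picked after its values were seen, was at 27.0 in S, 23.8 in B and 27.4 in N.

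S100a4 and S100a6 differed from each other in their order across the libraries. Within a library the ratio of their FPKM values needs no scaling, and S100a6 was 37.2-fold above S100a4 in S, 1.39-fold in B and 27.0-fold in N. The ratio in B thus stood apart from those in S and N. The first bases before the starts of these genes are shown with those of S100a11, the highest S100 gene of N, to compare genes with 3 different orders of levels. Each is the 250 bases before the RefSeq start (GRCm38.p6), all on the plus strand. Capitals mark matches on either strand to TATAAA (the TATA box), GGGCGG (the GC box), TGANTCA (the AP-1 site) or GGAATG (the TEAD site), and no matches overlapped.
S100a4, chr3:90603520-90603769: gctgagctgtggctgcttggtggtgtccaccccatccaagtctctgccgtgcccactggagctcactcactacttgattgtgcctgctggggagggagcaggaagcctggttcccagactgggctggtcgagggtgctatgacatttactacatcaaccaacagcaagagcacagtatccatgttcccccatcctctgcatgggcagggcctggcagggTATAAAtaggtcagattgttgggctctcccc
S100a6, chr3:90612644-90612893: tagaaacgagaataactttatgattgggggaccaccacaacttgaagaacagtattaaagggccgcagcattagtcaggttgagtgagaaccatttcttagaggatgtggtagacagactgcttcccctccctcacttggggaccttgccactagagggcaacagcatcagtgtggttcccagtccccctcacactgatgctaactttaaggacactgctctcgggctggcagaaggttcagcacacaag
S100a11, chr3:93520246-93520495: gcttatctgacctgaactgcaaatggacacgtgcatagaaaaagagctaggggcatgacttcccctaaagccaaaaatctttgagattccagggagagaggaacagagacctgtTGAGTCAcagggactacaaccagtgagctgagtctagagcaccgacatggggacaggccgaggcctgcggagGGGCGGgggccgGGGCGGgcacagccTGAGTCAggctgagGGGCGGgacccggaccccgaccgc

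The S100a4 window held 1 TATAAA match, which began 31 bases before the start. In the S100a11 window there were 3 GGGCGG matches and 2 TGANTCA matches. No match to any of the 4 motifs was found in the S100a6 window. Of 32851 windows of all genes, TATAAA was found in 12.4%, GGGCGG in 32.7%, TGANTCA in 6.75% and GGAATG in 12.6%. RefSeq windows were found for 8 of the 10 genes, in 12 windows. Of these 12 windows, TATAAA was found in 3 (of S100a3, S100a4 and S100a8), GGGCGG in 3, TGANTCA in 2 and GGAATG in 1. A match describes these letters only.

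S100a11 (ENSMUSG00000027907, chr3:93520488-93526287) encodes a partner of annexin A1 that is known for growth control in keratinocytes. Its level was 1282 in S, 1113 in B and 1918 in N, so that N was the highest library. The log2 ratio was -0.58 for S over N and -0.79 for B over N, within the 2-fold limit in both. It was among the most abundant genes of every library, with rank 32 in S, rank 31 in B and rank 29 in N. The FPKM of S100a6 was 3.25-fold that of S100a11 in S, 1.90-fold in B and 0.162-fold in N. Which of these genes led the family thus differed between the bulge libraries and N.

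S100a10 (ENSMUSG00000041959, chr3:93555080-93564643) encodes p11, the light chain of the annexin A2 complex that carries membrane proteins to the cell surface. Its level was 363 in S, 469 in B and 262 in N, with log2 ratios of 0.47 for S over N and 0.84 for B over N. Anxa2, the gene of its partner, also picked after its values were seen, was at 368 in S, 351 in B and 372 in N, values that differ less between the libraries. The ratio of S100a10 to Anxa2 in FPKM was 0.987 in S, 1.34 in B and 0.705 in N.

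The make-up of the summed S100 level differed between the libraries. The 10 genes summed to 6061 in S, 5362 in B and 2670 in N. Of this sum, S100a6 held 68.8% in S, 39.5% in B and 11.6% in N. S100a4 held 1.85% in S, 28.4% in B and 0.431% in N. The share of S100a11 was 21.2% in S, 20.8% in B and 71.8% in N. Without S100a4 and S100a6 the other 8 genes summed to 1779 in S, 1722 in B and 2348 in N, so N was then the highest library.

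**Figure D2:**
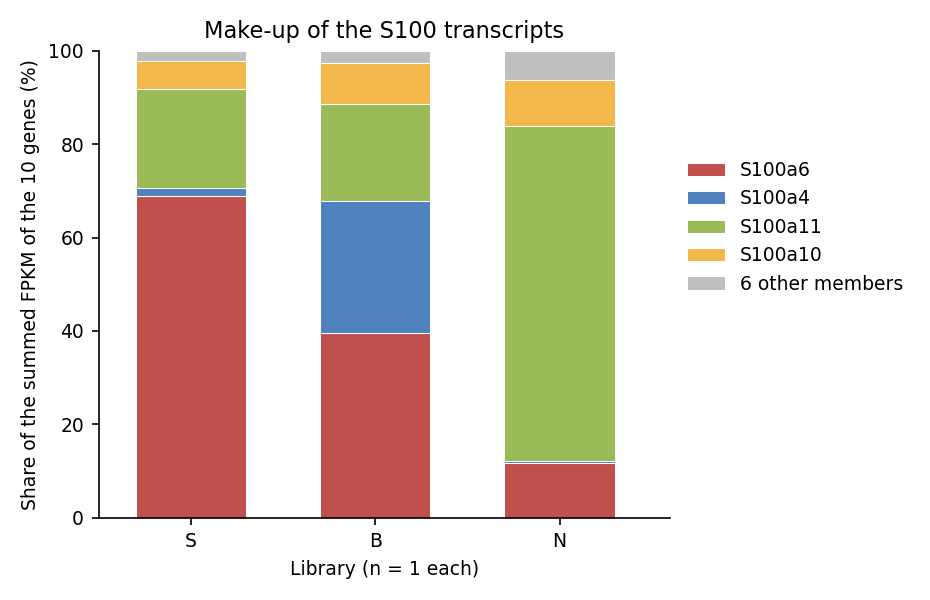
Share of each S100 gene in the summed FPKM of the 10 genes (percent, y axis) in the S, B and N libraries. S100a6 held 68.8% in S, S100a4 and S100a6 together made up most of B, and S100a11 held 71.8% in N.

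S100a1 and S100a13 lie head to head on opposite strands, and their levels differed from N in opposite directions. Both were lower in S than in B, within the limit, with log2 ratios of -0.55 for S100a1 and -0.28 for S100a13. S100a1 (ENSMUSG00000044080, chr3:90511034-90514392, minus strand) encodes a protein best known for calcium handling in heart and skeletal muscle. Its level was 19.6 in S, 29.2 in B and 7.44 in N, with both bulge libraries above N. The log2 ratio was 1.29 for S over N, or 0.98 with a pseudocount of 5, and 1.84 for B over N. S100a13 (ENSMUSG00000042312, chr3:90514435-90524581, plus strand) encodes a protein that helps export Fgf1 and Il1a, both secreted without a signal peptide. Its level was 4.02 in S, 5.09 in B and 10.9 in N, with both bulge libraries below N. The log2 ratio of S100a13 was -1.24 for S over N, past the limit, or -0.82 with a pseudocount of 5, and -0.96 for B over N, just short of it. The FPKM of S100a1 was 4.87-fold that of S100a13 in S, 5.73-fold in B and 0.684-fold in N. Only 42 bases separate the annotated genes, shown here because both starts face them (plus strand, chr3:90514393-90514434).
S100a1 to S100a13: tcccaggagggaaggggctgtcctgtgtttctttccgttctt

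S100a3 (ENSMUSG00000001021, chr3:90560578-90602702) encodes a cysteine-rich protein of the hair cuticle that binds zinc. Its level was 2.52 in S, 2.31 in B and 0.0377 in N, so that it was low in both bulge libraries and rested in N on about 1.1 fragments. With fragments rounded to whole numbers (52 in S, 53 in B and 1 in N), S was 70.6-fold above N with a 95% exact counting interval (Clopper-Pearson) of 12.1 to 2841. The corresponding ratio of B to N was 64.8, with an interval of 11.1 to 2606. These intervals cover counting error only and are no test, since the gene was selected on these levels and measured only through S and B. Its log2 ratio was 1.76 for S over N and 1.67 for B over N, but 0.58 and 0.54 with a pseudocount of 5, short of the limit. Of 18 genes of the hair cuticle and shaft in the tables, 4 were measured, and 2 were higher in S than in N (9.58% of all measured genes). Both of these, Hoxc13 and Selenbp1, were also the 2 called higher in B than in N, and they were picked after their values were seen. Hoxc13 was at 6.00 in S, 4.30 in B and 0.138 in N, and Selenbp1 at 2.105 in S, 2.62 in B and 0.411 in N. Both were measured only through S and B. Krt32, a cuticle keratin gene, was at 11.9 in S, 3.31 in B and 8.91 in N. It was the 1 gene lower in B than in N and the 1 gene higher in S than in B. Of all measured genes, 7.27% were higher and 7.11% lower in B than in N, and 3.90% were higher in S than in B.

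S100a14 and S100a16 differed least between the libraries. S100a14 (ENSMUSG00000042306, chr3:90526856-90528837), an epithelial member, was at 59.7 in S, 57.1 in B and 93.03 in N, with log2 ratios of -0.63 for S over N and -0.70 for B over N. S100a16 (ENSMUSG00000074457, chr3:90537254-90543151), a widely expressed member, was at 47.5 in S, 46.3 in B and 55.7 in N, with log2 ratios of -0.23 for S over N and -0.26 for B over N. Between S and B their log2 ratios were 0.06 for S100a14 and 0.03 for S100a16, and both signs turned under some of the other settings.

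S100a8 (ENSMUSG00000056054, chr3:90668978-90670035) encodes a subunit of calprotectin, which neutrophils hold in large amounts and keratinocytes make in inflamed skin. It was listed at 0 in S, with levels of 0.273 in B and 0.456 in N, under the limit for measured genes. These levels rest on about 4.2 fragments in B and 8.7 in N. Its partner S100a9 was listed at 0 in S and N and was at 0.0872 in B. Of 12 neutrophil genes, 0 reached a level of 1 in any library, their summed level was 0.609 in S, 0.460 in B and 0.855 in N, and Ly6g, Mpo, Camp, Ngp and Retnlg were listed at 0 in all 3. The most abundant was Cxcr2, at 0.173 in S, 0.0725 in B and 0.331 in N.

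**Figure D3:**
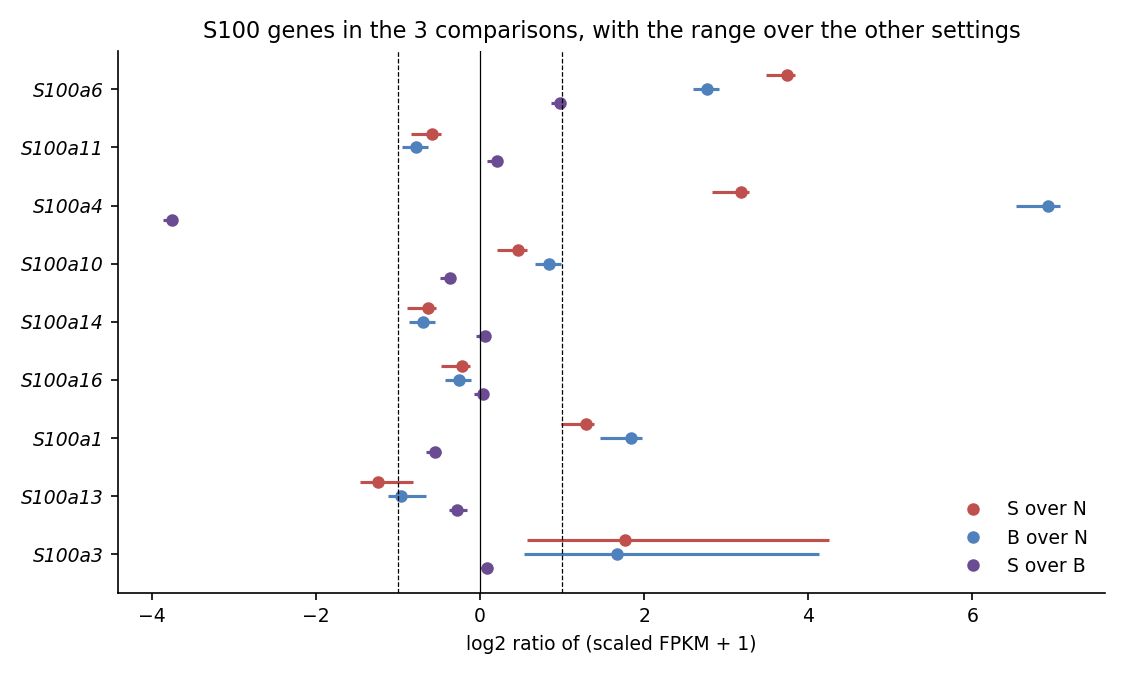
Log2 ratio of (scaled FPKM + 1) of the 9 measured S100 genes for S over N, B over N and S over B (points), with the range over the other settings of scaling, pseudocount and filter (lines). Dashed lines mark the 2-fold limit at -1 and 1. S100a4 and S100a6 lay beyond 1 in both comparisons with N under every setting run.

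The rest of the family was low. Of 16 genes of the family list in the tables, 10 were measured, and the 1 that is not among the 10 described was S100g, the gene of calbindin-D9k, at 3.43 in S, 0.481 in B and listed at 0 in N. S100a5 was listed at 0 in S, at 0.590 in B and at 0 in N. The skin gene S100a7a was at 0.567 in S, 0.510 in B and 0.0876 in N. S100b, known from Schwann cells and melanocytes, was at 0.101 in S, 0.113 in B and listed at 0 in N. S100z was at 0.740 in S, listed at 0 in B and at 0.175 in N. S100a2, which is outside that list and whose annotated gene lies within that of S100a3, was listed at 0 in all 3 libraries.

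Because S100a4 is also known from fibroblasts and myeloid cells, the markers of these cells were set beside it. The summed level of 12 Langerhans and myeloid cell genes was 14.8 in S, 13.99 in B and 45.8 in N. The most abundant of them was H2-Aa, at 4.51 in S, 4.81 in B and 13.5 in N, and Itgax was listed at 0 in S and B. Not all were highest in N. Cd207 was at 0.343 in S, 0.220 in B and 0.126 in N, and Lyz2 at 0.756 in S, 0.0816 in B and 0.178 in N. Cd207 and Lyz2 were picked after their values were seen. The summed level of 10 fibroblast genes was 6.51 in S, 12.7 in B and 19.4 in N, and that of the 9 genes without Thy1, a choice made after the values were seen, was 5.84 in S, 7.75 in B and 1.09 in N. Thy1 itself was at 0.673 in S, 4.99 in B and 18.3 in N. Besides Thy1, 2 of the 10 were measured, and both were higher in S (9.58% of all measured genes) and in B (7.27%) than in N. These were Fbln1, at 3.24 in S, 5.59 in B and 0.508 in N, and the collagen gene Col1a2. Col1a2 was at 1.34 in S, 1.77 in B and 0.103 in N. Both passed the limit for measured genes only through S and B, and both were picked after their values were seen. Another collagen gene picked in this way, Col1a1, was at 0.115 in S, 0.0931 in B and 0.0127 in N. Col3a1 was listed at 0 in N, Pdgfrb in B, and Dpt in S and N. The 9 T cell genes summed to 5.48 in S, 21.3 in B and 35.1 in N, with Trbc2 at 4.01 in S, 19.8 in B and 33.0 in N. The 8 without Trbc2 summed to 1.47 in S, 1.47 in B and 2.08 in N. Melanocyte genes summed to 35.5 in S, 17.6 in B and 2.40 in N, with Mitf at 34.4 in S, 16.4 in B and 2.08 in N. Those without Mitf summed to 1.06 in S, 1.25 in B and 0.320 in N. Leaving out Trbc2 and Mitf was also a choice made after the values were seen. Schwann cell genes summed to 8.52 in S, 7.69 in B and 15.1 in N, with Erbb3 the most abundant at 5.80 in S, 4.60 in B and 11.2 in N. Endothelial genes summed to 0.367 in S, 0.293 in B and 0.152 in N, with Pecam1 the most abundant at 0.257 in S, 0.189 in B and 0.144 in N. The part of these cells in the S100 levels was not tested.

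**Figure D4:**
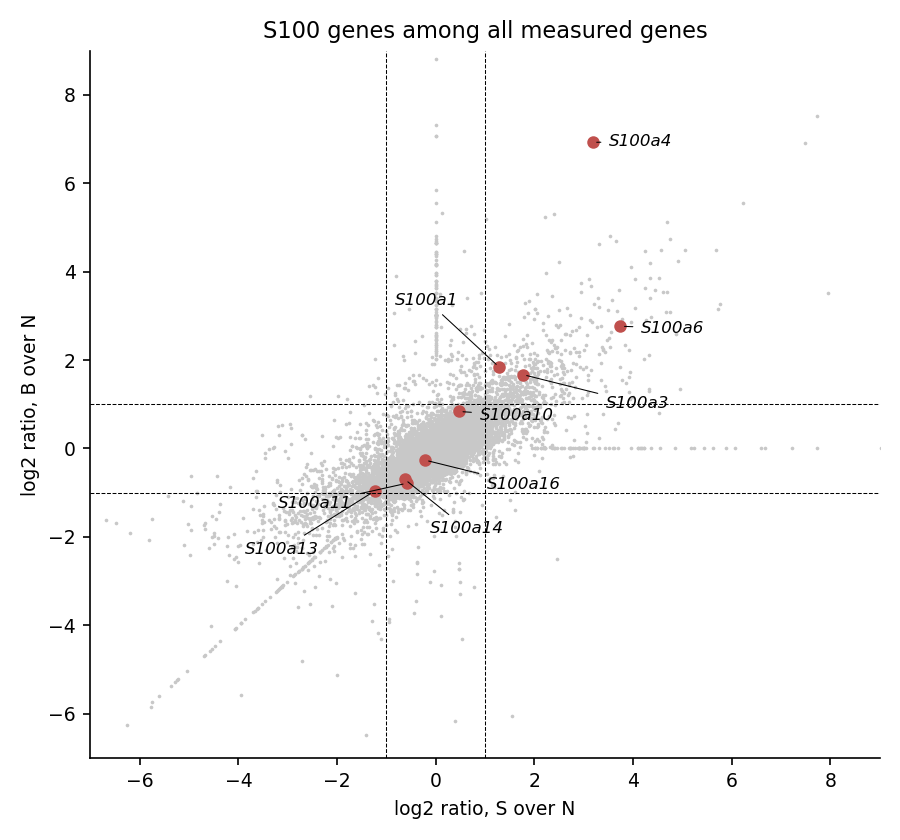
Log2 ratio of S over N (x axis) against that of B over N (y axis) for all measured genes (grey) and the 9 measured S100 genes (red); both axes share the N library, and 11 genes lie outside the axes. S100a4 stands at 3.18 and 6.93, S100a6 at 3.74 and 2.77, and S100a11, S100a13, S100a14 and S100a16 lie below 0 on both axes.

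Genes with levels most like those of the leading genes were sought among 3054 protein-coding genes with a mean level of at least 10, by the distance between log2 ratios of S over N and B over N. This rests on 3 libraries. Nearest to S100a6 was the water channel gene Aqp3, at a distance of 0.24, with 132 in S, 69.2 in B and 10.4 in N. Mitf, Actn1, Fam167a and Plxna2 followed at distances of 0.35 to 0.60. S100a4 had no gene as near. The nearest was the matrix protein gene Ccn2, at a distance of 1.80, with 18.6 in S, 147 in B and 2.73 in N. It was followed by Krt24, Duoxa1, Wfdc3 and Grem1, at distances of 1.95 to 2.31.

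Annexins are the best known partners of S100 proteins. Of 12 genes, 8 were measured, with 1 higher and 1 lower in S than in N (9.58% and 10.9% of all measured genes), 1 higher in B than in N (7.27%) and 0 called between S and B. They had a median log2 ratio of -0.16 for S over N, 0.05 for B over N and -0.24 for S over B. Anxa1, the partner of S100a11, was the 1 gene lower in S than in N, at 143 in S, 170 in B and 292 in N. Anxa6, picked after its values were seen, was the 1 gene higher in S than in N and also the 1 higher in B than in N. It was at 4.86 in S, 6.91 in B and 0.509 in N, and was measured only through S and B. Anxa8, at 891 in S, 639 in B and 561 in N, was within the limit in each comparison. So were Anxa5, at 32.6 in S, 55.4 in B and 49.0 in N, and Anxa7.

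Of 22 genes for targets of S100 proteins, 18 were measured. Their median log2 ratio was -0.05 for S over N, -0.26 for B over N and 0.22 for S over B. For the counts that follow, the shares of all measured genes were 9.58% higher in S than in N, 3.90% higher in S than in B and 7.11% lower in B than in N. Hltf, a chromatin remodelling factor bound by the complex of S100A10 and annexin A2, and Plat, the tissue plasminogen activator that this complex binds, were the 2 higher in S than in N and the 2 higher in S than in B. Hltf was at 19.6 in S, 8.91 in B and 6.86 in N. Plat, picked after its values were seen, was at 10.3 in S, 1.70 in B and 0.614 in N, and was measured only through S and B. The kinase gene Stk38 was the 1 gene lower in B than in N, at 12.1 in S, 9.87 in B and 21.5 in N. Myh9, the heavy chain of non-muscle myosin that S100A4 binds, was at 21.7 in S, 15.6 in B and 12.1 in N, within the limit. Capza1 was also within it, at 20.3 in S, 16.4 in B and 28.6 in N.

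Among 12 genes of receptors and export partners, 5 were measured, with a median log2 ratio of 0.21 for S over N, 0.13 for B over N and 0.08 for S over B. Fgf1, the growth factor exported with S100A13, was at 9.59 in S, 15.0 in B and 0.371 in N, and was measured only through S and B. Against N it was higher in both bulge libraries, where S100a13 was lower. Both genes were lower in S than in B, within the limit. Il1a, also exported with S100A13 and picked after its values were seen, was below a mean of 1. It was at 0.110 in S, 0.0330 in B and 0.0810 in N. The adhesion receptor gene Alcam was at 16.9 in S, 40.1 in B and 4.19 in N. Fgf1 and Alcam were the 2 called higher in S and in B than in N, and Alcam was the 1 gene lower in S than in B. Of all measured genes, 9.58% were higher in S and 7.27% in B than in N, and 5.93% were lower in S than in B. Ly96, a co-receptor of Tlr4, was the 1 gene lower in B than in N (7.11% of all measured genes). It was at 35.95 in S, 21.9 in B and 57.0 in N. Bsg was at 52.5 in S, 49.7 in B and 45.3 in N. The receptor genes Ager and Tlr4, picked after their values were seen, were below a mean of 1. Ager was at 0.0845 in S, 0.0230 in B and 0.0488 in N, and Tlr4 at 0.217 in S, 0.827 in B and 0.0187 in N.

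Other EF-hand genes were compared to see how calcium-binding proteins outside the family stood. Of 25 genes, 21 were measured, with 3 higher in S than in N, 4 higher and 1 lower in B than in N, and 1 higher in S than in B. The shares of all measured genes were 9.58%, 7.27%, 7.11% and 3.90% in that order. The median log2 ratio was 0.30 for S over N, 0.16 for B over N and 0.19 for S over B. The calmodulin-like gene Calml3 was at 157 in S, 103 in B and 7.38 in N. Capn2, the large subunit of a calpain protease, was at 23.4 in S, 16.4 in B and 1.92 in N, and Capns1, the small subunit, at 86.1 in S, 131 in B and 53.3 in N. Calm5 was at 74.4 in S, 23.3 in B and 67.7 in N. Myl9, a myosin light chain gene picked after its values were seen, was at 5.64 in S, 8.53 in B and 0.0538 in N. It was measured only through S and B.

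Lastly, the S100 genes were compared with their neighbours on chromosome 3. Between S100a1 and S100a10 lie 108 genes of the tables outside the family list, S100a2 among them, and 13 were measured, mostly genes of the cornified barrier. In S against N, 5 of the 13 were lower and 1 was higher, against 10.9% and 9.58% of all measured genes. In B against N, 2 were lower and 1 was higher (7.11% and 7.27%), and in S against B, 2 were lower (5.93%). Pglyrp4, which encodes a peptidoglycan-binding protein, is the nearest measured gene beyond S100a6, and was at 0.703 in S, 7.55 in B and 24.6 in N. The barrier gene Sprr1a was at 12.1 in S, 16.5 in B and 38.7 in N, and Sprr4 at 4.46 in S, 15.4 in B and 13.1 in N. Lce1m, picked after its values were seen, was the 1 higher gene in both comparisons with N. It was at 4.29 in S, 3.30 in B and 0.896 in N, and was measured only through S and B. Of 7 genes for fused S100 proteins, which carry an S100 domain at their start, Flg2 alone was measured, at 7.06 in S, 5.19 in B and 3.33 in N. Among 10 flanking genes, 4 were measured, all beside S100a1 (Ints3, Ilf2, Snapin and Chtop), and 0 of them were called in any comparison. Ints3, a subunit of the Integrator complex, was at 11.6 in S, 5.69 in B and 6.58 in N.

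**Figure D5:**
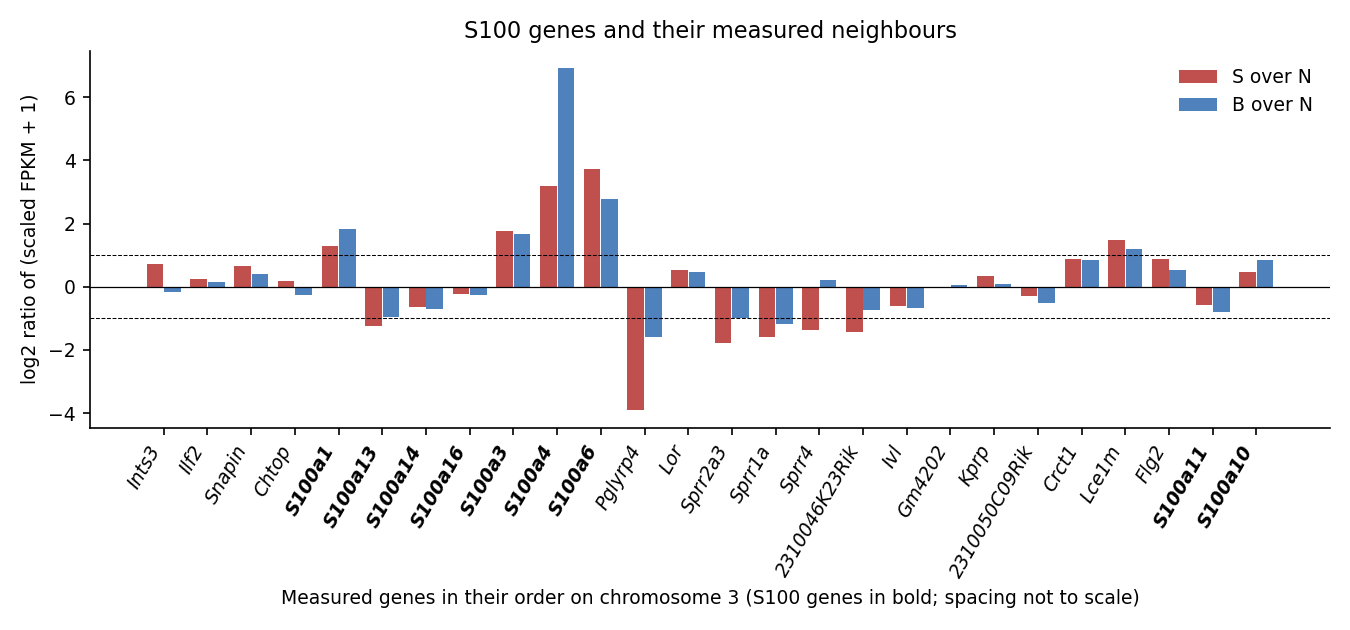
Log2 ratio of (scaled FPKM + 1) for S over N and B over N of the measured genes in their order along chromosome 3, with the S100 genes in bold; spacing is not to scale. S100a3, S100a4 and S100a6 stand together above the 2-fold limit, and Pglyrp4 next to them lies below it in both comparisons.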

How the data were processed

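RNA of sorted cells was amplified from poly(T) and random primers and sequenced with paired reads of 75 bp, per the labels' protocols. The authors deposited FPKM values per Ensembl gene; the header names FPKM for N and S, and for B the unit was taken from the values. The submitters' processing notes name TopHat2 2.0.12, Cufflinks 2.1.1, DESeq2 and mm10 without saying what each did. Annotation and strand use: not given in the sources used here. Short transcripts such as those of S100 genes receive less certain FPKM values.

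Of 49452 rows per file, 49109 were named from a gene table and the others kept their ID, and rows that share a symbol were summed. Each library was divided by its factor from median ratios (0.923 for S, 0.981 for B and 1.10 for N) over genes above 0 in all 3 libraries. Between 94.7% and 97.2% of values below 10 fragments, in single-exon genes of at least 3000 bases, lay within 0.1 of a whole fragment, which gave the depths. Fragments per S100 gene are estimates from the longest coding transcript. Python 3.11.15, pandas 2.3.3, scipy 1.17.1 and Biopython 1.88 were used, and the size rule was tested on simulated data.

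The S100 genes and all lists were chosen with earlier results of these data known. Named genes are all family genes, up to 4 genes of each list with the largest log2 ratio at a mean of at least 5, the most abundant marker of each other cell type, and the 5 genes most like each leading S100 gene; others are said to be picked. Loops were located by the best ungapped match to S100a4. Other scalings, pseudocounts of 0.1 and 5, and other filters were tried. S100a7l2 and Krt85 were not analysed here.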

Additional observations from a re-analysis of the deposited data

How the results depend on the processing

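Of 27 log2 ratios of S100 genes (9 genes in 3 comparisons), 22 kept their side of the 2-fold limit under all 9 alternatives (8 for S100a3) and 5 did not. Of the 10 called, 6 kept their call: S100a4 in all 3 comparisons, S100a6 in both comparisons with N, and S100a1 for B over N. S100a1 for S over N, S100a3 in both comparisons with N and S100a13 for S over N lost theirs with a pseudocount of 5, where 2 genes were higher and 0 lower in S than in N. S100a13 was lower in B than in N, the 1 such gene, with values as deposited and with a pseudocount of 0.1. No called ratio changed sign. S100a3 ranged from 0.58 to 4.25 for S over N, since it lies near 0 in N.

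With a pseudocount of 5, all measured genes gave 449 higher and 558 lower for S over N, 309 and 350 for B over N, and 191 and 277 for S over B. A mean of at least 5 gave 547 and 614, 374 and 420, and 239 and 342. These counts are of 5868 measured genes in place of 11598. A pseudocount of 0.1 gave 1079 lower for S over B, against 688. As deposited, the median log2 ratio of all genes was -0.18 for S over N and for B over N; the split was then 859 and 1682 against 1111 and 1267, and 719 and 1101 against 843 and 825. Factors from the 2 compared libraries alone, chosen after seeing the data, changed no call of an S100 gene. No paired analysis was possible because each population has 1 library, and no library could be left out.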
